A study of Mus musculus with 20 samples.

Results

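Iron and heme handling was followed through 10 genes in mouse liver: Hamp, Bmp6, Tfr2, Trf, Tfrc, Slc39a14, Slc40a1, Fth1, Ftl1 and Alas1. They were chosen by name and looked up in the array's probe table, which gave 22 probe sets for them, among 18195 genes with a probe set. Where a gene had several, the probe set with the highest mean log2 value stood for it. Hamp, Bmp6, Tfr2, Tfrc, Slc39a14, Slc40a1, Fth1 and Alas1 had a probe set of their own. The only probe set for Trf also lists Srprb, and all probe sets for Ftl1 also list Ftl1-ps2, so these values belong to shared probe sets. The 4 groups were Scd1-/- mice on a very low fat (VLF) diet, Scd1-/- mice on chow, Scd1+/+ mice on the VLF diet and Scd1+/+ mice on chow, with 5 individual livers in each. Per the labels the VLF diet was TD03045, and the series design adds that it was high in carbohydrate. Scd1 makes monounsaturated from saturated fatty acids, and the series design states a search for changes unique to the Scd1-/- group on this diet. The labels give no allele, strain, age, sex or length of feeding.

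Hepcidin, the product of Hamp, is a liver hormone that binds the iron exporter ferroportin (Slc40a1) and causes its degradation, so that less iron enters blood. Hepatocytes make it in response to BMP6 from sinusoidal endothelial cells, to transferrin-bound iron sensed with TFR2, and to interleukin-6 through STAT3. Ferritin (Fth1 and Ftl1 subunits) stores iron, and ALAS1 starts the heme synthesis of hepatocytes, whose product is used by cytochrome P450 enzymes and broken down by heme oxygenase (Hmox1). Mice carry a second hepcidin gene, Hamp2.

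The promoters of the hepcidin genes are shown because the array values of Hamp and Hamp2 differed in these livers while the sequences are alike. Promoter windows from RefSeq (GRCm38.p6) matched 7 of the 10 genes, leaving Trf, Slc40a1 and Slc39a14. The sequences give the 250 bases before the start site, 5′ to 3′, on the minus strand, for Hamp at chr7:30944030-30944279 and for Hamp2 at chr7:30924182-30924431. Capitals mark matches to GGCGCC, the core of the BMP response element, and to TTCNNNGAA, the form of a STAT3 site.
Hamp: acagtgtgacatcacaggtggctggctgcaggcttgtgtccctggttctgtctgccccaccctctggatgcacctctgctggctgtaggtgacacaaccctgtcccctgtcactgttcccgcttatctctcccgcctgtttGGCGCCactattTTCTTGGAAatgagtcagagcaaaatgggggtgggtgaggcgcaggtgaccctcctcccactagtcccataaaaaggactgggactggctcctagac
Hamp2: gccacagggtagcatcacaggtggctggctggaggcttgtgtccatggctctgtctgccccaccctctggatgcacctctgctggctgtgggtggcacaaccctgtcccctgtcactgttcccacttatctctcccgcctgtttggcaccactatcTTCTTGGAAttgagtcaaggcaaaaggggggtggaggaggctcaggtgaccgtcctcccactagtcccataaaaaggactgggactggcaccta
Aligned to each other, the windows had the same base at 227 positions, 91.9% of those paired. Hamp held GGCGCC at -109 and the STAT3 form at -97 from its start. Hamp2 held the STAT3 form at -94, and in the place of GGCGCC it read the motif with G4A, counted from the motif's 5′ end. Among the other members with a window, GGCGCC also lay in Tfrc at -89 and the STAT3 form in Alas1 at -171. Searched on both strands, GGCGCC lay in 9.59% and TTCNNNGAA in 7.02% of 32851 windows of this length. A match describes letters and is no evidence of binding.

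Scd1 intensity averaged 31.5 ± 4.0 in Scd1-/- VLF livers and 45.9 ± 11.5 in Scd1-/- chow livers, against 18158 ± 1419 in Scd1+/+ VLF livers and 8607 ± 1597 in Scd1+/+ chow livers (SD, n = 5 each). The deposited array medians were 32.2 to 36.6. Hepatocyte markers were abundant in every liver, with summed intensities of 133915 to 139762, 135550 to 139445, 136819 to 141969 and 133127 to 137501 in the same order of groups. In the knockout on the VLF diet 4 of 10 hepatocyte markers fell and 0 rose. Of stellate cell markers 6 of 10 rose and 1 fell, and of proliferation markers 8 of 9 rose. Over all genes the shares were 19.2% higher and 23.0% lower. Stellate cell markers summed to 5653 to 7124 in Scd1-/- VLF livers, against 3310 to 4027 in Scd1+/+ VLF livers. Proliferation markers summed to 2032 to 2907 in Scd1-/- VLF livers, against 902 to 1353 in Scd1+/+ VLF livers. The part of these cell types in the members' values was not tested. The ratio of actin 3′ to 5′ probes, a sign of RNA quality, averaged 1.82, 2.25, 2.19 and 2.70 in that order, so it moved with group. Scd1-/- chow replicate 3 stood apart: its acute phase list summed to 109515, against a group median of 68099, and its Saa1 was 10952, against 666 to 833 in the other Scd1-/- chow livers. Over all genes, 532 were called between genotypes on chow, against 35 without this liver, 25 without Scd1+/+ chow replicate 1, 47 without Scd1-/- chow replicate 4 and 69 without Scd1+/+ chow replicate 4.

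On the VLF diet 5 of the 10 genes were called between Scd1-/- and Scd1+/+ livers, where a call is a limma adjusted p under 0.05 over all probe sets. Bmp6, Slc40a1, Fth1 and the Trf/Srprb probe set rose and Tfr2 fell, and Hamp was not called. Of all 18195 genes 42.2% were called in this comparison (19.2% higher and 23.0% lower), so the members' share was near the background. When arrays were centred on their hybridization controls (transcripts spiked in before hybridization), the genes called over the array split into 5094 higher and 957 lower, against 3488 and 4183 on the main scale. The median log2 change was 0.12 over the 10 genes and -0.06 over all measured genes. The ranges of the groups did not overlap for 6 members, against 30.1% of all genes. On chow only Slc39a14 was called between genotypes (background 2.92%, of which 1.23% higher and 1.70% lower), and its groups were those that did not overlap (background 6.12%). The plot of intensities by liver shows each group, and the plot of log2 changes sets the 5 comparisons side by side.

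**Figure D1:**
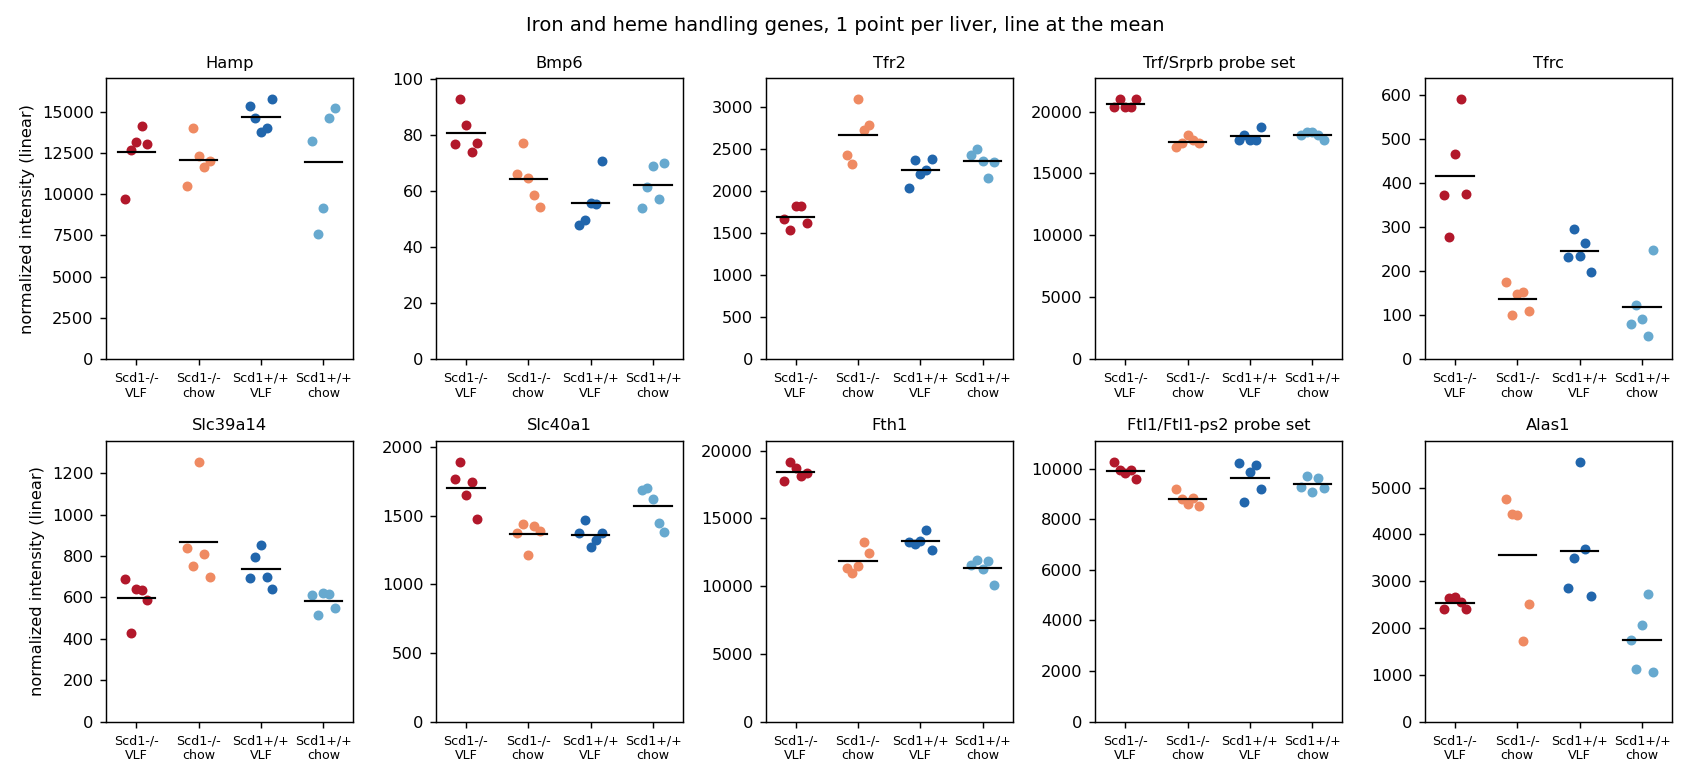
Normalized intensity (linear axis from 0) of the 10 genes in each liver, with 1 point per liver and a line at the mean of 5. Fth1 and the Trf/Srprb probe set lie higher in all 5 Scd1-/- VLF livers than in any other liver, Tfr2 lies lower, and Hamp overlaps between all groups.

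**Figure D2:**
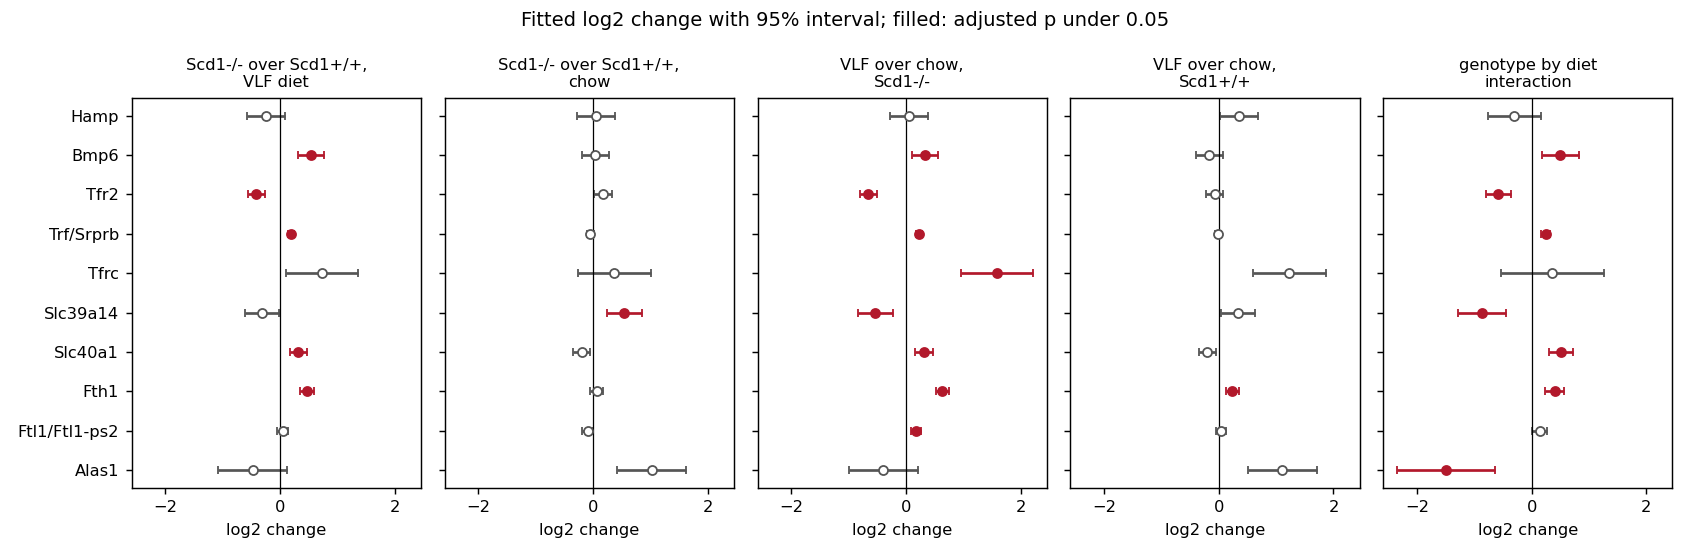
Fitted log2 change of each gene with its 95% interval in 5 comparisons, filled where the limma adjusted p was under 0.05. Filled points are frequent in the columns that hold the Scd1-/- VLF group (5, 8 and 7 of 10 genes) and number 1 in each of the other columns.

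Hamp, the hepcidin gene, overlapped between all groups. Its normalized intensity was 9708, 12646, 13143, 14148 and 13051 in Scd1-/- VLF livers, against 15348, 14607, 13777, 14006 and 15747 in Scd1+/+ VLF livers. The ranges overlapped, and the log2 change was -0.24 with a 95% interval of -0.57 to 0.09 (adjusted p = 0.292). On chow it was 10491, 14006, 12276, 11609 and 12027 in Scd1-/- livers, against 13232, 7581, 9124, 14607 and 15220 in Scd1+/+ livers. The wild-type chow livers spread most, and the change was 0.06 (interval -0.27 to 0.39). The VLF diet gave a change of 0.05 in Scd1-/- and 0.35 in Scd1+/+ livers (adjusted p = 0.381 in Scd1+/+), and neither was called. A dimmer probe set of Hamp gave changes of -0.11 between genotypes on the VLF diet and 0.06 on chow, also not called.

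Hamp2, the other hepcidin gene, fell on the brighter of its 2 probe sets in the knockout on the VLF diet. Its intensity was 1701, 2007, 3225, 3934 and 2426 in Scd1-/- VLF livers, against 20011, 16848, 20348, 19174 and 19174 in Scd1+/+ VLF livers. Every knockout liver lay below every wild-type liver on this diet, with a log2 change of -2.91 (adjusted p = 2.3e-05). On chow the values were 8409, 12098, 1688, 9228 and 10059 in Scd1-/- livers, against 10767, 5033, 10154, 14273 and 15747 in Scd1+/+ livers. These overlapped, with a change of -0.59 (adjusted p = 0.49), and -0.08 without Scd1-/- chow replicate 3, the lowest liver. The interaction of genotype and diet was -2.32 (adjusted p = 0.0091), and -2.83 without that liver. The suffix of this probe set (_x_at), shared by the brighter probe set of Hamp, means that its probes can also match related transcripts. A dimmer probe set of Hamp2 fell by 0.22 on the VLF diet (adjusted p = 0.0388), so the size of the change differed between probe sets.

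Bmp6, which encodes the ligand that raises hepcidin, was dim but rose in the knockout on the VLF diet. Its intensity was 76.8, 92.9, 83.7, 73.9 and 77.2 in Scd1-/- VLF livers, against 48.1, 49.6, 55.7, 55.4 and 70.8 in Scd1+/+ VLF livers. The groups did not overlap, and the level was 1.46-fold higher in Scd1-/- livers (log2 change 0.54 ± 0.11, estimate ± standard error; adjusted p = 0.000699). On chow it was 66.2, 77.2, 64.8, 58.7 and 54.4 in Scd1-/- livers, against 53.9, 61.4, 69.0, 57.1 and 70.2 in Scd1+/+ livers, with a change of 0.04. The interaction was 0.50 (adjusted p = 0.0295), with adjusted p up to 0.0597 when 1 liver was left out. This call was kept under 21 of 29 alternative settings. In bulk liver, fewer cells of a type and less RNA per cell cannot be told apart. Of 12 markers of sinusoidal endothelial cells, known to make BMP6, 1 rose and 6 fell on the VLF diet (background 19.2% and 23.0%). Their summed intensity was 3577 to 4851 in Scd1-/- VLF livers, against 3829 to 4469 in Scd1+/+ VLF livers. Bmp2, which endothelial cells also secrete, had a change of -0.01.

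Other genes of iron sensing and BMP signalling moved in both directions in the knockout on the VLF diet. Of 20 measured, 5 rose, 6 fell and 9 were not called, with a median log2 change of -0.06. Over all genes 19.2% rose and 23.0% fell, with the same median, so the list's counts were near the background. The risers, named after their values were seen, were Id1 (1.68), Id3 (1.18), Id2 (0.99), Smad1 (0.59) and Neo1 (0.54). The ID proteins are inhibitors of transcription whose genes respond to BMP, SMAD1 carries the signal and NEO1 binds hemojuvelin. Id1 was 490, 769, 1152, 502 and 737 in Scd1-/- VLF livers, against 283, 163, 144, 307 and 233 in Scd1+/+ VLF livers. Neo1 gave -0.07 as the mean of its probe sets, so its direction depends on the probe set.

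Among the genes that fell, Tmprss6, the protease that cleaves hemojuvelin and so restrains hepcidin, had a change of -0.75 ± 0.05 (adjusted p = 1.88e-09). Its intensity was 1076, 1159, 1179, 1320 and 1265 in Scd1-/- VLF livers, against 1911, 1991, 1983, 1969 and 2235 in Scd1+/+ VLF livers. All 5 knockout livers lay below the wild-type range. Acvr2a, a type II receptor, fell by 0.70 and Smad5 by 0.47. Centred on hybridization controls, Acvr2a had -0.32 and was not called (adjusted p = 0.148), and 6 of the 20 genes rose and 1 fell. With the same centring 5094 of all 18195 genes rose and 957 fell. Hjv, the BMP coreceptor hemojuvelin, and Hfe, which acts with TFR2, had changes of 0.03 and 0.15 and were not called. On chow limma called 0 of these 20 genes between genotypes, and 6 had an unadjusted p under 0.05. Of all 16189 measured genes, 4420 had such a p on chow.

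**Figure D3:**
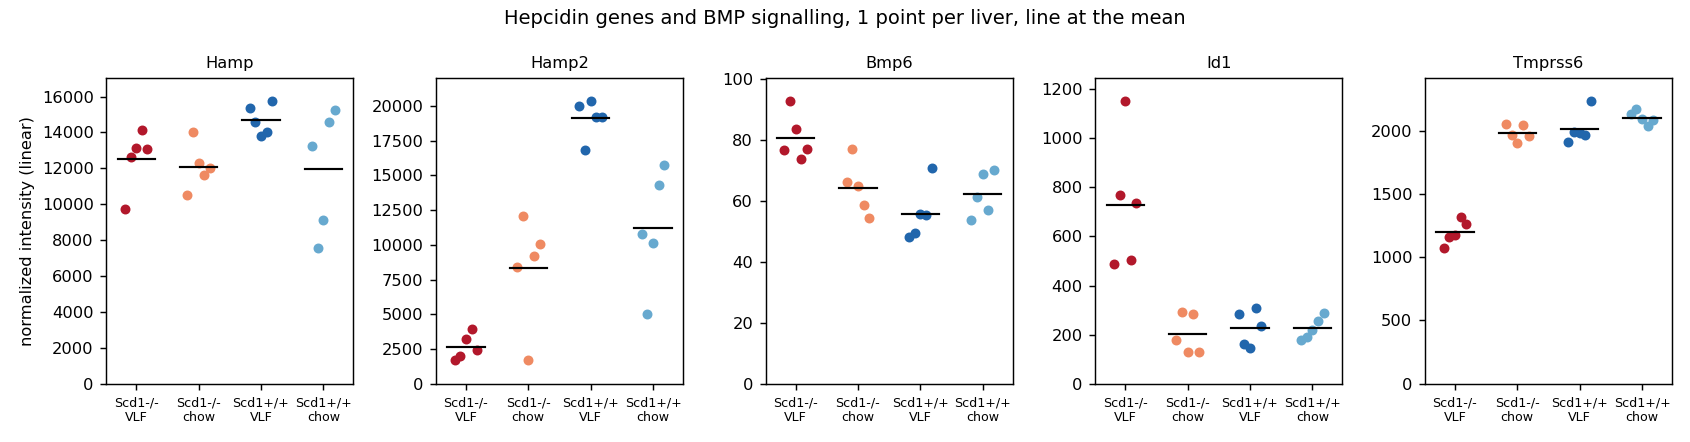
Normalized intensity (linear axis from 0) of Hamp, Hamp2, Bmp6, Id1 and Tmprss6, 1 point per liver with a line at the mean of 5. Id1 is higher in the Scd1-/- VLF livers than in the Scd1+/+ VLF livers, Hamp2 and Tmprss6 are lower and Hamp overlaps.

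Interleukin-6 is the other input to hepcidin. Il6 itself was at the floor of the scale in all 20 livers. Of 16 measured genes of the interleukin-6 and acute phase response, 7 rose and 5 fell in the knockout on the VLF diet. Over all genes 19.2% rose and 23.0% fell. Saa1 (2.88), Orm2 (2.50) and Socs3 (2.08), the feedback inhibitor of STAT3, rose, while Crp (-1.40) and Itih4 (-0.87) fell. The summed intensity of the list was 54052 to 67076 in Scd1-/- VLF livers, against 63591 to 66183 in Scd1+/+ VLF livers. Whether these moved with Hamp or Hamp2 was not tested.

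Tfr2, the hepatocyte sensor of transferrin iron, fell in the knockout on the VLF diet. Its intensity was 1663, 1529, 1821, 1824 and 1619 in Scd1-/- VLF livers, against 2039, 2363, 2196, 2251 and 2381 in Scd1+/+ VLF livers. The groups did not overlap, and the level was 1.33-fold lower (log2 change -0.41 ± 0.07, adjusted p = 0.000191). On chow it was 2423, 2325, 3091, 2720 and 2781 in Scd1-/- livers, against 2432, 2501, 2352, 2156 and 2348 in Scd1+/+ livers. The chow change was 0.17 (adjusted p = 0.173), and the interaction was -0.58 (adjusted p = 0.000367). Centred on the array's hybridization controls, the change on the VLF diet was -0.19 (adjusted p = 0.373) and the interaction -0.29 (0.274), so neither was called on that scale. A second probe set fell by 0.69 in the same comparison.

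The Trf/Srprb probe set reads transferrin, the iron carrier of blood made by hepatocytes. Its intensity was 20348, 21003, 20348, 20348 and 21003 in Scd1-/- VLF livers, against 17731, 18130, 17731, 17731 and 18725 in Scd1+/+ VLF livers. It was higher in every knockout liver, by 0.19 ± 0.03 in log2 (1.14-fold, adjusted p = 1.64e-05). Equal values arise because quantile normalization gives all arrays the same set of values, with a highest value of 24366. On chow the change was -0.05, and the interaction was 0.24 (adjusted p = 0.000153). Srprb, a subunit of the signal recognition particle receptor, rose by 1.24 on its own brightest probe set in the same comparison, and its part in the shared value was not tested.

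Tfrc, the receptor that takes up transferrin, rose with the VLF diet in the knockout. Its intensity was 373, 277, 466, 590 and 374 in Scd1-/- VLF livers, against 175, 101, 147, 152 and 108 in Scd1-/- chow livers. The groups did not overlap and the level was 3.02-fold higher on the VLF diet (log2 change 1.59 ± 0.30, adjusted p = 0.000408). In Scd1+/+ livers it was 232, 294, 234, 264 and 198 on the VLF diet, against 79.9, 123, 90.1, 53.4 and 247 on chow. This change of 1.23 was not called (adjusted p = 0.0568), and it was 1.55 (adjusted p = 0.0042) without Scd1+/+ chow replicate 5, the highest liver of its group. Between genotypes on the VLF diet the change was 0.73 (interval 0.10 to 1.37, adjusted p = 0.0708). The same change was called with 9 of 30 alternative settings, with adjusted p from 0.00803 to 0.173. The interaction was 0.36 with an interval of -0.53 to 1.25. A dimmer probe set of Tfrc rose by only 0.23 with diet in the knockout (adjusted p = 0.039) and gave -0.01 with diet in Scd1+/+ livers, and the third lay at the floor in all 20 livers.

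Slc39a14, the importer ZIP14 for iron not bound to transferrin, was the member called between genotypes on chow. Its intensity was 836, 751, 1254, 810 and 699 in Scd1-/- chow livers, against 612, 516, 624, 614 and 547 in Scd1+/+ chow livers. All knockout livers lay above the wild-type livers, with a change of 0.55 ± 0.14 (1.46-fold, adjusted p = 0.0477). This call was kept under 11 of 30 alternative settings, and leaving out most of the livers, singly, ended it. Without Scd1-/- chow replicate 3, the highest, the change was 0.41 (adjusted p = 0.124), and without Scd1+/+ chow replicate 1 it was 0.57 (0.105). On the VLF diet it was 690, 431, 641, 635 and 588 in Scd1-/- livers, against 695, 797, 855, 697 and 639 in Scd1+/+ livers, a change of -0.31 (adjusted p = 0.104). The same change was called in the fit without Scd1-/- chow replicate 3 (adjusted p = 0.0346), where the interaction was -0.72 (0.0031) and the diet change in Scd1-/- livers -0.39 (0.0175). With all livers the interaction was -0.86 (adjusted p = 0.00429), and -0.53 (0.144) when centred on hybridization controls. Of the 3 dimmer probe sets, 1 gave an interaction of -0.66 (adjusted p = 0.0267), 1 gave -0.67 (0.0746) and 1 gave -0.01.

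Slc40a1, the exporter ferroportin, rose slightly in the knockout on the VLF diet on its brighter probe set. Its intensity was 1764, 1890, 1651, 1740 and 1471 in Scd1-/- VLF livers, against 1374, 1470, 1270, 1320 and 1374 in Scd1+/+ VLF livers. The groups met closely without overlap, and the level was 1.25-fold higher (log2 change 0.32 ± 0.07, adjusted p = 0.00171). On chow it was 1375, 1436, 1213, 1421 and 1384 in Scd1-/- livers, against 1683, 1700, 1623, 1448 and 1379 in Scd1+/+ livers, a change of -0.20 (adjusted p = 0.121). The interaction was 0.51 (adjusted p = 0.00103). The dimmer probe set gave -0.15 on the VLF diet (adjusted p = 0.282), and the mean of both probe sets gave 0.09 (0.421). For the interaction the mean of both gave 0.21 (adjusted p = 0.212), and for diet in Scd1-/- livers 0.10 (0.405), so all 3 calls rest on 1 probe set. Ferroportin is also made by macrophages. Of 16 macrophage and Kupffer cell markers 15 rose and 1 fell on the VLF diet (background 19.2% and 23.0%). Their summed intensity was 19500 to 29819 in Scd1-/- VLF livers, against 7503 to 8928 in Scd1+/+ VLF livers, and their part in Slc40a1, Hmox1 and Cd163 was not tested.

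Fth1, the ferritin heavy chain that oxidizes iron for storage, rose in the knockout on the VLF diet. Its intensity was 17731, 19174, 18725, 18130 and 18376 in Scd1-/- VLF livers, against 13232, 13143, 13348, 14148 and 12646 in Scd1+/+ VLF livers. On chow it was 11368, 10952, 11468, 13232 and 12445 in Scd1-/- livers, against 11532, 11950, 11260, 11853 and 10059 in Scd1+/+ livers. The 5 Scd1-/- VLF livers lay above the other 15 livers. The genotype change was 0.47 ± 0.05 on the VLF diet (1.39-fold, adjusted p = 1.45e-06) and 0.07 ± 0.05 on chow, and the interaction was 0.40 (adjusted p = 0.000781). A second probe set gave 0.37, 0.05 and 0.32 for the same contrasts. In Scd1+/+ livers the VLF diet gave 0.23 (adjusted p = 0.0442), a call kept under 11 of 30 alternative settings.

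The brightest Ftl1/Ftl1-ps2 probe set, for the ferritin light chain that forms the iron core, differed little between genotypes on the VLF diet. Its intensity was 10261, 9940, 9832, 9940 and 9571 in Scd1-/- VLF livers, against 10218, 8685, 9868, 10154 and 9177 in Scd1+/+ VLF livers. The ranges overlapped, with a change of 0.05 (interval -0.04 to 0.13). In Scd1-/- chow livers it was 9177, 8802, 8603, 8850 and 8513, below every Scd1-/- VLF liver. This diet change was 0.17 ± 0.04 (1.13-fold, adjusted p = 0.00423). Centred on hybridization controls, the genotype change on the VLF diet was 0.31 (adjusted p = 0.0173). On chow the main-scale genotype change was -0.09 (adjusted p = 0.21). On the dimmest Ftl1 probe set Scd1-/- chow livers (673 to 864) lay below Scd1+/+ chow livers (871 to 1125). On the VLF diet that probe set overlapped between genotypes. On the remaining Ftl1 probe set the chow groups overlapped (6315 to 7313 against 6841 to 7902).

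Other iron transport and storage genes also moved both ways on the VLF diet: 8 of 21 measured rose, 6 fell and 7 were not called. The background was 19.2% higher and 23.0% lower. Lcn2, which binds iron-loaded siderophores, had the highest change of the list at 5.90. It was 9228, 7963, 8643, 7931 and 9228 in Scd1-/- VLF livers, against 127, 91.4, 221, 166 and 145 in Scd1+/+ VLF livers. Among Scd1-/- chow livers it was 6561 in replicate 3 and 158 to 249 in the other livers. Slc11a2 (DMT1, an importer of ferrous iron) rose by 1.40, Cp (ceruloplasmin, which oxidizes iron for export) by 0.94 and Ncoa4 (the receptor that delivers ferritin for degradation) by 0.56. Ireb2, which encodes the iron regulatory protein IRP2, had a change of -1.03, and Slc39a8, a metal importer, of -0.91. Ireb2 was 146, 95.4, 134, 140 and 158 in Scd1-/- VLF livers, against 262, 256, 306, 266 and 268 in Scd1+/+ VLF livers, with no overlap. On chow limma called 0 of these 21 genes between genotypes, and 5 had an unadjusted p under 0.05. Of all 16189 measured genes, 4420 had such a p on chow. Centred on hybridization controls, 11 of the 21 genes rose and 2 fell on the VLF diet, against 5094 and 957 of all 18195 genes.

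**Figure D4:**
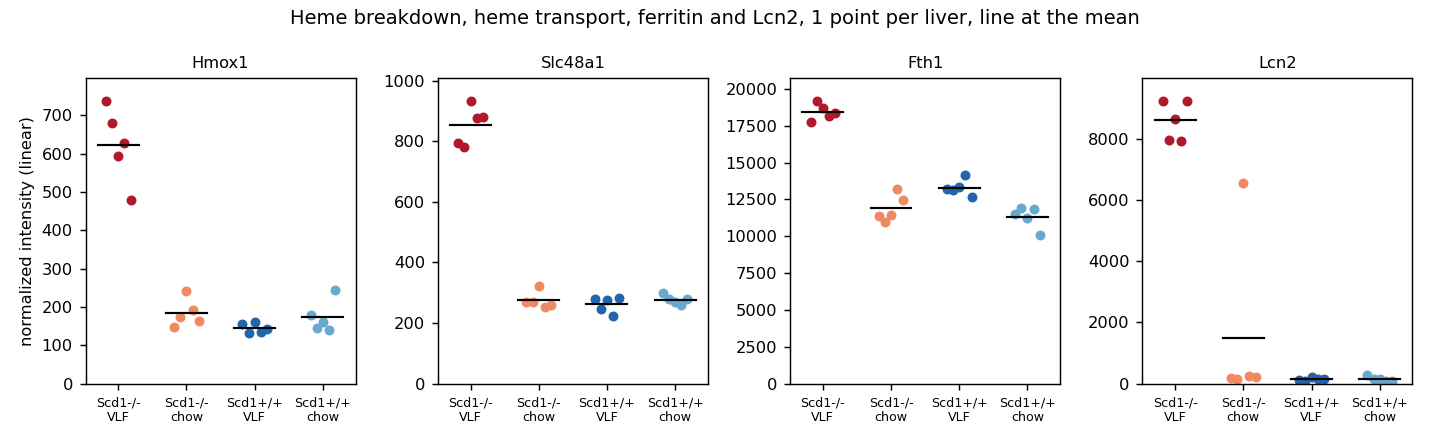
Normalized intensity (linear axis from 0) of Hmox1, Slc48a1, Fth1 and Lcn2, 1 point per liver with a line at the mean of 5. All 5 Scd1-/- VLF livers lie above all livers of the other groups in each panel, and 1 Scd1-/- chow liver has Lcn2 at 6561.

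Alas1, the rate-limiting enzyme of heme synthesis in liver, had fitted genotype changes of opposite sign on the 2 diets, and neither was called alone. Its intensity was 2412, 2632, 2661, 2563 and 2417 in Scd1-/- VLF livers, 4753, 4438, 4420, 1728 and 2512 in Scd1-/- chow livers, 2857, 3488, 5548, 3694 and 2677 in Scd1+/+ VLF livers and 1735, 1137, 2072, 2720 and 1055 in Scd1+/+ chow livers. The Scd1-/- VLF livers lay close together and the Scd1-/- chow livers spread widely. The genotype change was -0.48 on the VLF diet (adjusted p = 0.24) and 1.02 on chow (0.0591). The difference between them, the interaction, was -1.50 ± 0.41 (adjusted p = 0.013), and it was called with each of 29 alternative settings, at -1.73 to -1.23. A dimmer probe set gave an interaction of -1.19 (adjusted p = 0.0266).

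The other genes of heme synthesis were lower in the knockout on the VLF diet. Of 11 measured, 10 fell and 0 rose, with a median log2 change of -0.66, against -0.06 over all measured genes. The background was 23.0% lower and 19.2% higher. Alas2, the erythroid form of the first enzyme, had a change of -1.02, Cpox (coproporphyrinogen oxidase) of -0.84, Abcb10 (a mitochondrial transporter) of -0.80, Alad of -0.75 and Abcb6 (a porphyrin transporter) of -0.69. Cpox was 154, 206, 165, 187 and 177 in Scd1-/- VLF livers, against 338, 301, 345, 359 and 255 in Scd1+/+ VLF livers, with no overlap. Urod, the decarboxylase before Cpox in the pathway, had a change of -0.07 and was not called. Centred on hybridization controls, the median was -0.26 and 2 of the 11 were called lower, so the count depends on the scale. With the same centring 957 of all 18195 genes were called lower and 5094 higher. Of 6 measured red cell and erythroid markers 4 fell, and their summed intensity was 286 to 347 in Scd1-/- VLF livers, against 380 to 477 in Scd1+/+ VLF livers. Their part in Alas2 and the other genes was not tested. On chow limma called 0 of the 11 heme synthesis genes between genotypes, and 2 had an unadjusted p under 0.05. Of all 16189 measured genes, 4420 had such a p on chow.

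Of 11 cytochrome P450 genes, whose enzymes carry heme, 7 fell and 1 rose in the knockout on the VLF diet. For this list and the next, the share over all genes was 23.0% lower and 19.2% higher. Cyp2b9 had a change of -3.45 and Cyp2c37 of -3.23, while Cyp2b10 rose by 1.67. In iron-sulfur cluster assembly 4 of 14 rose and 8 fell, with Cisd1, a mitochondrial iron-sulfur protein, at -0.72 and Glrx5, a cluster carrier, at 0.40. Centred on hybridization controls, 5 rose and 1 fell, while of all 18195 genes 5094 rose and 957 fell. The balance of this list turned with the scale, as did that of all genes (3488 higher and 4183 lower on the main scale).

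Genes of heme breakdown and scavenging rose in the knockout on the VLF diet: 10 of 14 rose, 2 fell and 2 were not called. Over all genes 19.2% rose and 23.0% fell. The list's median change was 0.50, against -0.06 over all measured genes. Hmox1, the inducible heme oxygenase, was 737, 680, 593, 629 and 478 in Scd1-/- VLF livers, against 155, 133, 160, 136 and 142 in Scd1+/+ VLF livers. Its change was 2.09 ± 0.15 (adjusted p = 3.9e-09) on the VLF diet and 0.08 on chow. Slc48a1 (HRG1, which moves heme out of lysosomes) rose by 1.71, Flvcr1 (a heme exporter) by 1.82, Blvrb (a biliverdin reductase) by 1.05, Hp (haptoglobin) by 1.21 and Hpx (hemopexin, the heme carrier of blood) by 0.45. Slc46a1, a heme and folate importer, had a change of -1.11. Hmox2, the constitutive oxygenase, had a change of 0.03. With centring on hybridization controls 11 of the 14 genes rose and 1 fell, against 5094 and 957 of all 18195 genes.

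Cd163, the hemoglobin receptor of macrophages, was the 1 gene of this list called between genotypes on chow. It rose by 1.44 on the VLF diet and by 0.93 on chow. On chow it was 214, 214, 402, 208 and 207 in Scd1-/- livers, against 122, 182, 163, 131 and 67.8 in Scd1+/+ livers. Without Scd1-/- chow replicate 3 the chow change was 0.74 (adjusted p = 0.123). Of 11 genes in a list of NRF2 targets and regulators of the oxidant response, 8 rose on the VLF diet and 0 fell. The background was 19.2% higher and 23.0% lower. Gsr, glutathione reductase, had a change of 1.58. The part of this list in Hmox1, Fth1 or Slc40a1 was not tested.

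**Figure D5:**
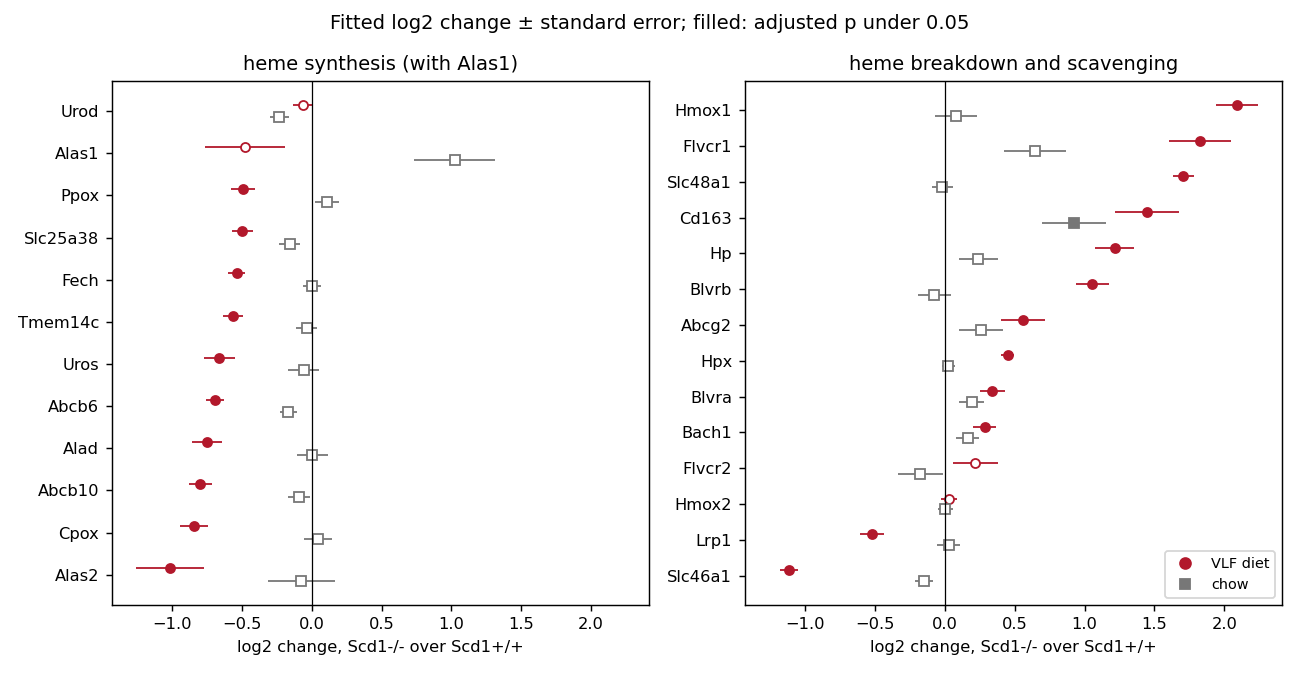
Fitted log2 change ± standard error (Scd1-/- over Scd1+/+) of heme synthesis genes, Alas1 included, and of heme breakdown and scavenging genes on the VLF diet and on chow, filled where the limma adjusted p was under 0.05. On the VLF diet 10 of 11 synthesis genes other than Alas1 are filled left of 0 and 10 of 14 breakdown genes are filled right of 0, and on chow Cd163 is the filled point.

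In Scd1-/- livers 8 of the 10 genes were called between the VLF diet and chow, 6 higher and 2 lower (background 34.8%, of which 17.1% higher and 17.7% lower). The groups did not overlap for 7 members (background 25.2%). This comparison shares the Scd1-/- VLF livers with the genotype comparison on the VLF diet. Fth1 rose by 0.63, Tfrc by 1.59, Bmp6 by 0.34, Slc40a1 by 0.32 on its brighter probe set (-0.13 on the dimmer, adjusted p = 0.436), the Trf/Srprb probe set by 0.23 and the Ftl1/Ftl1-ps2 probe set by 0.17. Tfr2 had a change of -0.65 and Slc39a14 of -0.53. In Scd1+/+ livers Fth1 was the member called with diet (background 1.58%, of which 0.797% higher and 0.780% lower), at 0.23. The groups did not overlap for 2 members (background 4.26%). Of the heme synthesis list, 10 of 11 fell and Urod rose by 0.27 with the VLF diet in Scd1-/- livers, and Urod gave -0.32 without probe sets of less specific suffix.

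The interaction, the genotype change on the VLF diet minus that on chow, was called for 7 of the 10 genes (background 24.2%). It was positive for 4 (background 12.1%), namely Slc40a1 (0.51, on its brighter probe set alone), Bmp6 (0.50), Fth1 (0.40) and the Trf/Srprb probe set (0.24), and negative for 3 (background 12.1%), namely Alas1 (-1.50), Slc39a14 (-0.86) and Tfr2 (-0.58). Hamp (-0.30, interval -0.77 to 0.17), Tfrc and the Ftl1/Ftl1-ps2 probe set (0.14, interval 0.01 to 0.27) were not called. The Ftl1/Ftl1-ps2 interaction was called when centred on hybridization controls (0.54, adjusted p = 0.00736) and with the mean of Ftl1 probe sets (0.25, adjusted p = 0.0268).

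Within groups the 10 genes showed no called relation to each other. Deviations from the group means were correlated for 45 pairs over 20 livers with permutations within groups, and 0 pairs were called after Benjamini-Hochberg adjustment, by Pearson's r or Spearman's rho. By an unadjusted Pearson p 1 pair passed, Bmp6 and Fth1 (r = -0.49, permutation p = 0.0464, adjusted p = 0.603). With arrays centred on hybridization controls, 10 pairs were called. That scale shifts all genes of an array together, by controls whose mean log2 value was 9.52 to 10.30 over the arrays. Both genes of a pair share such a shift, and its part in these calls was not tested.

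Across all 20 livers, groups included, the genes with the closest pattern were found by Pearson's r of log2 values among 14391 genes above the floor, as a description. Tfr2 was closest to Hc (complement C5, 0.97), F9 (coagulation factor IX, 0.95) and Itih4 (0.94). Fth1 was closest to Igf2r (0.97), the Trf/Srprb probe set to Cbr1 (0.97), Slc40a1 to Hspb1 (0.90), Tfrc to Dnm1l (0.90) and Bmp6 to Zyg11b (0.88). Hamp had no neighbour above Mindy1 at 0.73.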

How the data were processed

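Livers were hybridized singly to 20 Affymetrix Mouse 430 2.0 arrays. The authors deposited intensity values for 45101 probe sets, judged from the numbers to be on a linear scale. Per the submitters' processing notes MAS5 and RMA were used, and which made the values is not stated. The median of each array was set to a common value, values under 16 were raised to 16, and log2 values were quantile-normalized. The printed intensities are these values on the linear scale. Leaving out 64 control probe sets, the test covered 45037, of which 9117 lay at the floor on all arrays. Means of the 4 groups were fitted over all 20 arrays with limma (version 3.58.1, R 4.3.3) on 16 residual degrees of freedom, and p-values were adjusted by Benjamini-Hochberg over the whole array. A call is an adjusted p under 0.05, and ± beside a log2 change is its standard error. Shares of all genes refer to 18195 genes, of which 16189 lay above the floor somewhere. The number of arrays limits the precision.

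In the platform's annotation 34945 probe sets listed 1 gene, 932 several and 9160 none. The members and gene lists were chosen with earlier results of these data known. Named genes are all members, up to 4 genes per list with the smallest adjusted p on the VLF diet, and preset genes of hepcidin and heme control. Id2, Id3, Smad1, Neo1, Smad5, Alad, Urod, Blvrb, Flvcr1, Cd163, Ncoa4, Hp, Hmox2, Glrx5, Orm2 and Cyp2b10 were chosen after their values were seen. Same-numbered livers correlated at -0.262 to 0.273 (median -0.005, 30 pairs), so the numbers were not taken to pair samples. Alternatives changed scaling, floor, probe set choice, samples and variance model, and left out each liver in turn. The procedure was tested on simulated data. Plots were made with matplotlib 3.10.9 in Python 3.11.15.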

Additional observations from a re-analysis of the deposited data

Results flagged for a closer look

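The genotype change differed between diets for 7 of the 10 genes by the test of the difference itself (limma interaction, adjusted p under 0.05). These log2 differences were 0.5002 for Bmp6, -0.5829 for Tfr2, 0.2414 for the Trf/Srprb probe set, -0.8636 for Slc39a14, 0.5148 for Slc40a1, 0.4013 for Fth1 and -1.499 for Alas1. The Bmp6 call was kept under 21 of 29 alternative settings. For Tfr2, Slc39a14 and Alas1 the fitted change was below 0 on the VLF diet (-0.41, -0.31 and -0.48) and above 0 on chow (0.17, 0.55 and 1.02). For Slc40a1 it was above 0 on the VLF diet (0.32) and below 0 on chow (-0.20).

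Slc40a1 was 1213.21 in Scd1-/- chow replicate 3, farther below the other 4 livers of its group than Dixon's limit allows. Of 40 groups of 5 livers checked, 1 was marked, and chance marks about 1 in 20. Without this liver the Slc40a1 interaction was 0.47 (adjusted p = 0.00181), and with the mean of both Slc40a1 probe sets it was 0.21 (0.212).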

How the results depend on the processing

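Over 10 other settings and 20 fits that each left out 1 liver, the 10 genes gave 1490 values. Of these, 1405 kept their side of the threshold, 58 lost a call, 27 gained 1 and 0 reversed a called direction. Changes that were not called could turn sign, as the Hamp interaction did (-0.4004 to 0.0055). Members called between genotypes on chow (1) were 0 when centred on hybridization controls, with a floor of 32, with only the groups compared and with the mean of a gene's probe sets, and 2 with median scaling alone, a floor of 1, only brighter probe sets and a trended robust variance. Members called with diet in Scd1+/+ livers (1) were 0 when centred on hybridization controls, with only the groups compared, without _x_at or _s_at probe sets and with a replicate block, and 2 with a floor of 1, only brighter probe sets and a trended robust variance. With 1 liver left out the counts were 5 to 6 and 0 to 1 for genotype on the VLF diet and on chow, 7 to 8 and 0 to 2 for diet in Scd1-/- and Scd1+/+ livers, 6 to 7 for the interaction, and 0 to 0 for pairs. With a replicate block the counts in that order were 6, 1, 8, 0 and 7. Pairs related within groups were 10 when centred on hybridization controls, a scale that shifts all genes of an array together.

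In the medians given here, genes at the floor were counted. Main-scale medians over all genes were -0.02 for genotype on the VLF diet, -0.0004 for diet in Scd1-/- livers and 0 for the interaction. Centring on hybridization controls gave 0.10, 0.27 and 0.29 in that order. It called 5094 genes higher and 957 lower between genotypes on the VLF diet, against 3488 and 4183. It ended the calls of Tfr2 (genotype on the VLF diet and interaction), Slc39a14 (on chow, with diet at -0.11, and interaction) and Fth1 (diet in Scd1+/+ livers). Under it called changes turned sign for Fgb (0.0158, with diet 0.0711, interaction 0.0444), Apoc3 (0.0464), Bmpr1a (with diet 0.1598, interaction 0.055), Apob (with diet 0.0661) and Kel (with diet 0.1392, interaction 0.0593). With the mean of probe sets Bmpr1a (0.0813, with diet 0.064), Apob (with diet 0.0022), Neo1 (-0.0674, interaction -0.0955) and Urod (with diet -0.0208) turned. Without _x_at or _s_at probe sets Neo1 (-0.5259, with diet -0.2965, interaction -0.5752) and Urod (with diet -0.3161) turned. The Urod interaction (-0.2996) and Ciapin1 on chow (0.7254) also changed sign there, but neither was called on the main scale. The cause was not tested. Genes called between genotypes on chow numbered 532 and ranged from 3 (hybridization controls) to 1497 (median scaling alone), and with 1 liver left out from 25 (Scd1+/+ chow replicate 1) to 1032 (Scd1-/- chow replicate 2). Those called with diet in Scd1+/+ livers numbered 287, and 129 to 358 with 1 liver left out. The Bmp6 diet call in Scd1-/- livers ended without Scd1-/- VLF replicate 2 or 3 or Scd1-/- chow replicate 4 or 5 (adjusted p up to 0.0844). Bmp6 was dim, with normalized intensities of 48.1 to 92.9 against deposited array medians of 32.25 to 36.58. The effect of this on the size of its fold was not tested.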
